A study of Homo sapiens with 15 samples.

Results

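The 10 listed genes described here are NF-kB subunits and feedback regulators of NF-kB signalling. NFKB1, NFKB2 and RELB are among the subunits, and NFKBIA, NFKBIE, NFKBIZ and BCL3 among the IkB proteins. TNFAIP3, TRAF1 and BIRC3 are among the signalling regulators. Of the 10 genes, 9 were measured among 18417 genes in all, each by the single probeset that the platform annotation ties to exactly 1 symbol. BIRC3 had no such probeset and was not analysed here. The samples were 15 RNAs hybridised to Affymetrix whole-transcript gene arrays, 3 in each of 5 groups. The first group was RNA of exosomes from JINB8 (JinB8) cells, a CD47-deficient mutant of Jurkat that is a single mutant line, and the second was RNA of exosomes from Jurkat T cells (JK, CD47+), a human T cell leukaemia line. The other three were human umbilical vein endothelial cells (HUVEC) held for 6 h in EGM2 medium with JINB8 exosomes, HUVEC held in the same way with JK exosomes, and HUVEC labelled as untreated. Exosomes are small vesicles shed into the medium; here they were precipitated with a kit from concentrated medium conditioned by T cells in human serum, and the labels name no mock preparation for the untreated cells. The labels do not say whether replicates came from separate cultures, so a p-value here speaks of the spread among these arrays alone, and that spread may be technical.

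NF-kB proteins are dimers that are held in the cytoplasm by IkB proteins until a kinase complex marks the IkB for destruction. The freed dimers enter the nucleus, bind kappaB sites in DNA and switch on inflammatory genes, which in endothelium include leukocyte adhesion molecules and chemokines. Among their targets are many of the genes described here: NFKBIA and NFKBIE retrap the dimers, TNFAIP3 (A20) edits ubiquitin chains on the receptor complexes, and TRAF1 and BIRC3 join those complexes. NFKB1 encodes p105 and p50, NFKB2 encodes p100 and p52, and RELB is the usual partner of p52.

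The windows shown next are the start regions of the members that hold a kappaB-like motif on either strand (GGGA, any 2 bases, then TTCC) within 250 bases before a transcript start. Start windows from RefSeq (GRCh38.p14) were given for 8 of the 10 members, in 14 windows, with none for RELB or NFKBIE. That motif lay in 5 of the 14 windows, in 5 members (NFKB1, NFKB2, NFKBIA, NFKBIZ and TNFAIP3), whereas 1.4% of all 35116 windows of the same length held it. The looser form (GGGA, any 4 bases, then CC), which includes every match of the first, lay in 10 of the 14 windows and in 6 members, TRAF1 being the sixth, against 22.6% of all windows. No match of either form was found in the windows given for BCL3 and BIRC3. In the sequences, written 5′ to 3′ on the strand of the gene, capitals mark matches to either form. The NFKB1 window lies at chr4:102501109-102501358 on the plus strand, and its match begins 49 bases before the start. The NFKB2 window lies at chr10:102395455-102395704 on the plus strand, with the stricter match 21 bases and a looser one 176 bases before the start. The NFKBIA window lies at chr14:35404750-35404999 on the minus strand, with a match 81 bases before the start. The NFKBIZ window lies at chr3:101827740-101827989 on the plus strand, with a match 223 bases before the start. The TNFAIP3 window lies at chr6:137867009-137867258 on the plus strand, with a match 67 bases before the start. In NFKBIA and TNFAIP3 the motif reads along the opposite strand from the gene, and so does the looser match of NFKB2.
NFKB1: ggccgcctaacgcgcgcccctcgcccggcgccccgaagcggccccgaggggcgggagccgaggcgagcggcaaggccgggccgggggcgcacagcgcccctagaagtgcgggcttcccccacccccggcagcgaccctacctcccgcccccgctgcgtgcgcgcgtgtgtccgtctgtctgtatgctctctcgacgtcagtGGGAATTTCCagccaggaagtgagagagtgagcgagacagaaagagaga
NFKB2: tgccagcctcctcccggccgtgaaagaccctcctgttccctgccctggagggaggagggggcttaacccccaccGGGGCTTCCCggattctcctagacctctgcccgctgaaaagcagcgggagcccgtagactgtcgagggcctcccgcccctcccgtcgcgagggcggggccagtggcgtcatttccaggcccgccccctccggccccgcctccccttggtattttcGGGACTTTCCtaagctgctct
NFKBIA: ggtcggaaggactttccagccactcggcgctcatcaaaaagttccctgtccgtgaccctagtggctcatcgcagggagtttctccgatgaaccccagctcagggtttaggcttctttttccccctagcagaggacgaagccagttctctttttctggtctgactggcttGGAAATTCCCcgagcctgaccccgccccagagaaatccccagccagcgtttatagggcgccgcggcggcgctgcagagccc
NFKBIZ: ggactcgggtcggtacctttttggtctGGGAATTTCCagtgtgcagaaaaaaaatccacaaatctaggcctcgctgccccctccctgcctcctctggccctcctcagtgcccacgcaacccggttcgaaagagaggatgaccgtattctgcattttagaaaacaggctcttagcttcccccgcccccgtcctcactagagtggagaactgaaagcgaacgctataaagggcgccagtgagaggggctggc
TNFAIP3: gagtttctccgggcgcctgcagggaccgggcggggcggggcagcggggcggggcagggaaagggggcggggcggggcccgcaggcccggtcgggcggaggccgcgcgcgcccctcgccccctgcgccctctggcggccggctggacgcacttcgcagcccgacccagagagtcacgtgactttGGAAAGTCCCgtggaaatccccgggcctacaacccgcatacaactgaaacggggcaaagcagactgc
These are matches of letters and were not tested as binding sites.

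Levels of the arrays differed before any gene was compared. The median deposited log2 signal over all genes lay between 5.57 and 5.62 on the arrays of HUVEC with JINB8 exosomes, between 5.61 and 5.67 with JK exosomes, and between 7.41 and 7.44 on the untreated arrays. This step in level and the exosome treatment cannot be told apart in the deposited values. Both comparisons with untreated HUVEC therefore used log2 signal after quantile normalization over the 9 HUVEC arrays. Levels then match, but a difference in handling or processing between treated and untreated arrays still cannot be told apart from the treatment. After normalization 49.3% of all genes were called with JINB8 and 48.6% with JK exosomes. Quantile-normalized values show change relative to the other genes of an array. In RNA from bulk samples, fewer cells expressing a gene and less of its RNA per cell cannot be told apart.

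Replicate 3 of each exosome-treated HUVEC group stood apart from its own group. Across 9208 brighter genes, deviations from the mean of the 6 exosome-treated arrays correlated at 0.48 between JINB8-treated replicates 1 and 2 and at 0.60 between JK-treated replicates 1 and 2. JINB8-treated replicate 3 correlated at -0.35 and -0.03 with the other two of its group and at 0.06 and 0.02 with JK-treated replicates 1 and 2. JK-treated replicate 3 correlated at -0.40 with each of the other two of its group, and at 0.28 and 0.10 with JINB8-treated replicates 1 and 2. The labels were kept as given, results are stated below with and without both arrays, and whether the labels of the 2 arrays were exchanged was not tested. In the cell type check, 11 endothelial markers had a mean deposited log2 signal of 5.32 to 5.46 in exosome RNA, against 9.43 to 9.56 on the JINB8-treated arrays, 9.38 to 9.50 on the JK-treated arrays and 10.6 to 10.8 on the untreated arrays. The median rank of 13 T cell markers among 18417 genes lay between 1738 and 2713 in JINB8 exosome RNA and between 3490 and 4077 in JK exosome RNA. On the HUVEC arrays it lay between 14197 and 16369. Against untreated HUVEC, where 26% of all genes were called higher and 23.3% lower with JINB8 exosomes and 26.2% and 22.4% with JK exosomes, 1 of the 13 T cell markers rose and 3 fell with JINB8 exosomes, and 2 rose and 3 fell with JK exosomes. Of 8 myeloid markers 0 rose and 3 fell with JINB8 exosomes (median log2 fold change -0.20), and 1 rose and 5 fell with JK exosomes (median -0.35). Of the 11 endothelial markers 3 rose and 2 fell with JINB8 exosomes and 2 rose and 1 fell with JK exosomes, and of 10 mural cell and fibroblast markers 3 rose and 2 fell in each comparison. Their part in the values below was not tested. The files give no detection calls, so no marker could be said to be absent.

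**Figure D1:**
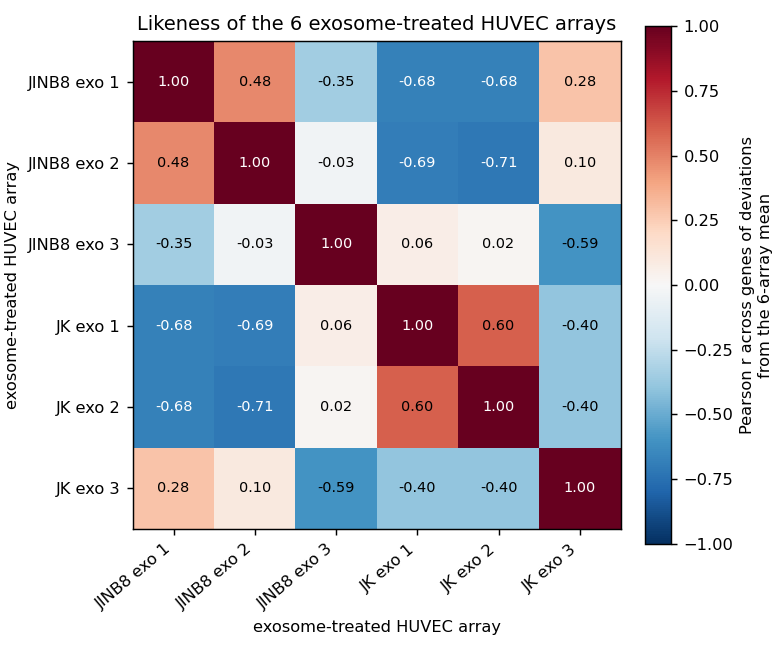
Pearson correlation across genes of the deviations from the 6-array mean, for each pair of the 6 exosome-treated HUVEC arrays (rows and columns; colour from -1 to 1). JK-treated replicate 3 correlates at 0.28 with JINB8-treated replicate 1 and at -0.40 with JK-treated replicates 1 and 2.

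Most of the genes were lower in exosome-treated than in untreated HUVEC, and NFKBIA was called lower with neither kind of exosome. With JINB8 exosomes 7 of the 9 measured genes fell and 0 rose, where 23.3% of all genes tested were called lower and 26% higher. With JK exosomes 8 of 9 fell and 0 rose, where 22.4% of all genes were called lower and 26.2% higher. The median log2 fold change of the 9 was -0.54 in each comparison, beside 0.02 over all genes in each. The tests were limma's moderated tests with Benjamini-Hochberg adjustment over 18417 genes at a threshold of 0.05, and both comparisons share the untreated arrays. The groups did not overlap for 7 genes with JINB8 exosomes and 8 with JK exosomes, all of them lower, where 27.1% and 25.9% of all genes were lower without overlap and 30.5% and 30.2% higher. Without replicate 3 of both treated groups, 7 fell and 1 rose with JINB8 exosomes, and 8 fell and 0 rose with JK exosomes. The shares of all genes called lower and higher were then 22.4% and 24.9% with JINB8, and 20.7% and 23.9% with JK exosomes. In that fit the log2 fold changes with JINB8 exosomes were -0.35 for NFKB1, -0.83 for RELB, -0.76 for NFKBIE, -0.65 for BCL3 and -2.48 for TRAF1, and all 5 passed. With JK exosomes they were -0.60 for NFKB1, -0.37 for NFKB2, -0.63 for RELB, -0.65 for NFKBIE, -0.46 for NFKBIZ, -0.41 for BCL3 and -2.06 for TRAF1, and all 7 passed. Centring each array on its median in place of quantile normalization left 4 genes lower with JINB8 exosomes and 5 with JK exosomes. It put NFKBIA higher in both. With that centring 18.7% of all genes were called lower and 38.1% higher with JINB8 exosomes, and 19.5% and 35.1% with JK exosomes. The calls lost were those of NFKB1 (-0.023), NFKBIZ (-0.25) and BCL3 (-0.30) with JINB8 exosomes and of NFKB1 (-0.26), NFKB2 (-0.18) and BCL3 (-0.31) with JK exosomes, and that centring moved the median of all genes to 0.13 with JINB8 and 0.10 with JK exosomes.

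Among the subunits, NFKB1 stood at 8.60, 8.64 and 8.57 with JINB8 exosomes, 8.46, 8.28 and 8.56 with JK exosomes and 9.01, 8.93 and 8.97 in untreated HUVEC, on the quantile-normalized log2 scale. All 6 treated values lay below all 3 untreated ones. NFKB1 fell by 0.37 with JINB8 exosomes (SE 0.086, limma adjusted p = 0.0040) and fell by 0.54 with JK exosomes (SE 0.086, limma adjusted p = 0.00037). The JINB8 call for NFKB1 was lost after median centring (limma adjusted p = 0.87) and in a fit over all 15 arrays normalized together (log2 fold change -0.29, limma adjusted p = 0.13). NFKB2 stood at 8.15, 8.11 and 8.38 with JINB8 exosomes, 8.05, 8.13 and 7.96 with JK exosomes and 8.41, 8.37 and 8.63 in untreated HUVEC. The JK-treated arrays were all below the untreated ones, while replicate 3 of the JINB8-treated cells reached into the untreated range. The log2 fold change of NFKB2 was -0.25 with JINB8 exosomes (95% interval -0.48 to -0.03, limma adjusted p = 0.058), which did not pass, and -0.42 with JK exosomes (SE 0.10, limma adjusted p = 0.0053). NFKB2 passed in the JINB8 comparison too without replicate 3 of both treated groups (-0.33, limma adjusted p = 0.021) and without JINB8-treated replicate 3 alone (-0.34, limma adjusted p = 0.023). It also passed after cyclic loess (limma adjusted p = 0.037), without the dimmest genes (0.047), with a variance trend (0.043) and with array weights (0.033). RELB stood at 6.27, 6.07 and 6.41 with JINB8 exosomes, 6.38, 6.36 and 6.54 with JK exosomes and 6.85, 7.14 and 7.03 in untreated HUVEC, with no overlap between treated and untreated cells. RELB fell by 0.76 with JINB8 exosomes (SE 0.11, limma adjusted p = 0.00016) and fell by 0.58 with JK exosomes (SE 0.11, limma adjusted p = 0.0011).

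Among the IkB genes NFKBIE, NFKBIZ and BCL3 fell in both comparisons, and NFKBIA passed in neither. NFKBIA (IkB-alpha), the inhibitor that is made afresh within the hour after NF-kB activation, stood at 10.66, 10.55 and 10.25 with JINB8 exosomes, 10.21, 10.13 and 10.57 with JK exosomes and 10.01, 10.37 and 9.96 in untreated HUVEC. Treated and untreated values overlapped in both comparisons. Its log2 fold change was 0.38 with JINB8 exosomes (95% interval 0.05 to 0.71, limma adjusted p = 0.056) and 0.19 with JK exosomes (95% interval -0.14 to 0.52, limma adjusted p = 0.31), and neither passed. Without replicate 3 of both treated groups NFKBIA rose by 0.49 with JINB8 exosomes (limma adjusted p = 0.011) and stood at 0.06 with JK exosomes (limma adjusted p = 0.74). Its rise with JINB8 exosomes also passed without JINB8-treated replicate 3 alone (0.49) and without untreated replicate 2 (0.51). In the deposited values, where the untreated arrays lie higher throughout, its log2 fold change was -0.95 with JINB8 and -1.17 with JK exosomes, against -1.71 and -1.68 for the median of all genes.

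NFKBIE (IkB-epsilon), a second cytoplasmic inhibitor, stood at 7.18, 7.30 and 7.45 with JINB8 exosomes, 7.44, 7.28 and 7.20 with JK exosomes and 8.11, 8.0 and 7.94 in untreated HUVEC. Treated and untreated values did not overlap, and NFKBIE fell by 0.70 with JINB8 exosomes (SE 0.097, limma adjusted p = 0.00013) and fell by 0.71 with JK exosomes (SE 0.097, limma adjusted p = 0.00013). NFKBIZ (IkB-zeta) and BCL3 act in the nucleus, where they bind p50 or p52 dimers at target genes. NFKBIZ stood at 6.37, 6.33 and 6.23 with JINB8 exosomes, 6.20, 6.08 and 6.32 with JK exosomes and 6.72, 6.47 and 6.64 in untreated HUVEC. It fell by 0.30 with JINB8 exosomes (SE 0.094, limma adjusted p = 0.020) and fell by 0.41 with JK exosomes (SE 0.094, limma adjusted p = 0.0039). The JINB8 call for NFKBIZ was lost without replicate 3 of both treated groups (log2 fold change -0.26, limma adjusted p = 0.058), and also without JINB8-treated replicate 3 alone (-0.26), untreated replicate 1 (-0.25) or untreated replicate 3 (-0.29), and in the fit over all 15 arrays (-0.24, limma adjusted p = 0.062). BCL3 stood at 7.26, 7.44 and 7.70 with JINB8 exosomes, 7.62, 7.57 and 7.25 with JK exosomes and 7.79, 8.26 and 7.97 in untreated HUVEC. All treated values were below the lowest untreated one, and BCL3 fell by 0.54 with JINB8 exosomes (SE 0.15, limma adjusted p = 0.011) and fell by 0.53 with JK exosomes (SE 0.15, limma adjusted p = 0.012). The JK call for BCL3 was lost without untreated replicate 2 (log2 fold change -0.40, limma adjusted p = 0.057).

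TRAF1 had the greatest fall of the 9 genes in both comparisons. TRAF1, an adaptor of TNF receptors that recruits the BIRC2 and BIRC3 ubiquitin ligases, stood at 4.18, 4.01 and 4.34 with JINB8 exosomes, 4.55, 4.46 and 4.44 with JK exosomes and 6.73, 6.44 and 6.54 in untreated HUVEC. It fell by 2.40 with JINB8 exosomes (5.27-fold, SE 0.10, limma adjusted p = 3.23e-08) and fell by 2.09 with JK exosomes (4.25-fold, SE 0.10, limma adjusted p = 9.41e-08). On the treated arrays TRAF1 was a dim gene, ranking 15231 to 16216 of 18417 with JINB8 exosomes and 14612 to 14916 with JK exosomes, against 7561 to 8476 in untreated HUVEC, and without detection calls its true low level is not known. TNFAIP3 stood at 6.83, 6.85 and 7.56 with JINB8 exosomes, 7.47, 7.61 and 6.83 with JK exosomes and 8.12, 7.94 and 8.22 in untreated HUVEC. The treated values formed 2 levels: JINB8-treated replicate 3 and JK-treated replicates 1 and 2 lay at 7.47 and above, and JINB8-treated replicates 1 and 2 and JK-treated replicate 3 lay at 6.85 and below, while all untreated values were above both. TNFAIP3 fell by 1.01 with JINB8 exosomes (SE 0.22, limma adjusted p = 0.0026) and fell by 0.79 with JK exosomes (SE 0.22, limma adjusted p = 0.011). Without replicate 3 of both treated groups its log2 fold change was -1.24 with JINB8 exosomes (limma adjusted p = 2.03e-05) and -0.55 with JK exosomes (limma adjusted p = 0.0025).

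**Figure D2:**
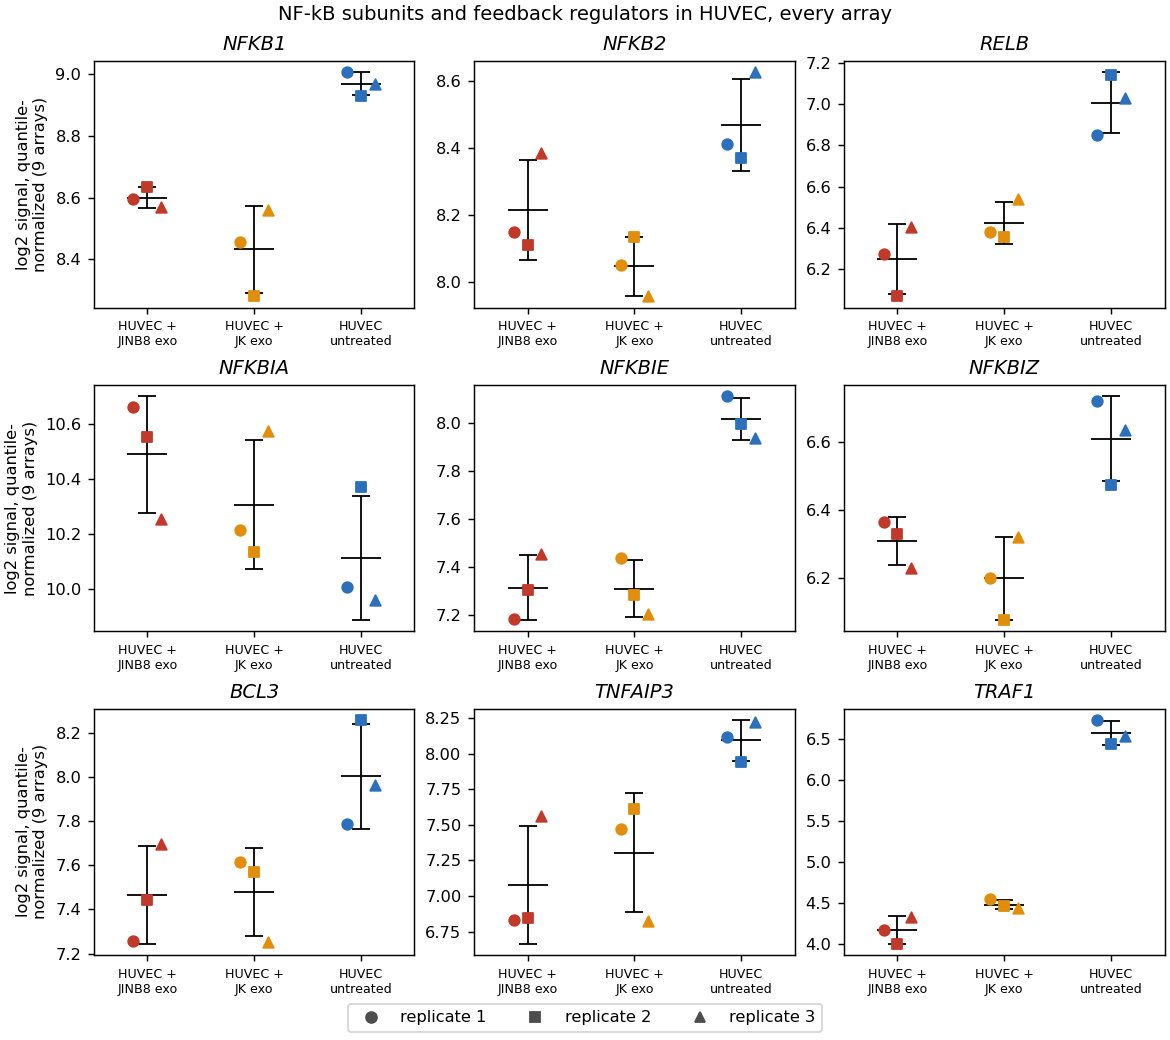
Quantile-normalized log2 signal of the 9 genes (y axes) on each of the 9 HUVEC arrays, by group (x axes), with the mean and SD of each group in black and a marker shape for each replicate number. TRAF1 lies between 4.01 and 4.55 on the treated arrays and between 6.44 and 6.73 on the untreated ones, and NFKBIA overlaps between the groups.

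Between the 2 kinds of exosome-treated HUVEC, 0 of the 9 genes and 0 of all 18417 genes passed (limma on deposited values, 0% called; 1678 genes had an unadjusted p under 0.05). This comparison asks whether exosomes from CD47-deficient cells act differently from those of CD47+ cells. NFKB1 had 8.09, 8.13 and 8.07 with JINB8 exosomes and 7.97, 7.72 and 8.05 with JK exosomes on the deposited log2 scale, a difference of 0.18 (95% interval -0.04 to 0.41). NFKB2 had 7.65, 7.59 and 7.89 with JINB8 and 7.56, 7.58 and 7.43 with JK exosomes, a difference of 0.19 (95% interval -0.04 to 0.41). Both subunits were higher on every JINB8-treated array, as were 7.68% of all genes. RELB had 5.65, 5.42 and 5.81 with JINB8 and 5.82, 5.82 and 5.95 with JK exosomes, a difference of -0.24 (95% interval -0.47 to 0.0018). TRAF1 had 3.57, 3.44 and 3.71 with JINB8 and 3.86, 3.82 and 3.83 with JK exosomes, a difference of -0.26 (95% interval -0.49 to -0.03, limma adjusted p = 0.49). RELB and TRAF1 were lower on every JINB8-treated array, as were 9.78% of all genes. For the remaining 5 genes the groups overlapped, with differences of 0.22 for NFKBIA (95% interval -0.10 to 0.54), -0.03 for NFKBIE (-0.29 to 0.23), 0.07 for NFKBIZ (-0.15 to 0.28), -0.04 for BCL3 (-0.36 to 0.28) and -0.27 for TNFAIP3 (-0.75 to 0.22).

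The wide interval of TNFAIP3 came with the split of its replicates. TNFAIP3 had 6.23, 6.24 and 7.02 with JINB8 exosomes and 6.97, 7.07 and 6.26 with JK exosomes, so that replicate 3 of each group lay with replicates 1 and 2 of the other. BCL3 had 6.68, 6.88 and 7.16 with JINB8 and 7.13, 7.03 and 6.69 with JK exosomes, and NFKBIA had 10.24, 10.15 and 9.82 with JINB8 and 9.77, 9.64 and 10.13 with JK exosomes. In BCL3 the third replicates were crossed in the same way, and in NFKBIA with the opposite sign. Without replicate 3 of both groups, a choice made after these values were seen and in the direction that separates the groups, TNFAIP3 was lower with JINB8 exosomes by a log2 fold change of -0.78 (SE 0.13, limma adjusted p = 0.0081), and 300 of 18417 genes passed. In that fit NFKBIA differed by 0.49 (limma adjusted p = 0.099) and BCL3 by -0.30 (limma adjusted p = 0.36), and neither passed. Nor did the others, with differences of 0.27 for NFKB1, 0.051 for NFKB2, -0.28 for RELB, -0.18 for NFKBIE, 0.14 for NFKBIZ and -0.33 for TRAF1.

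**Figure D3:**
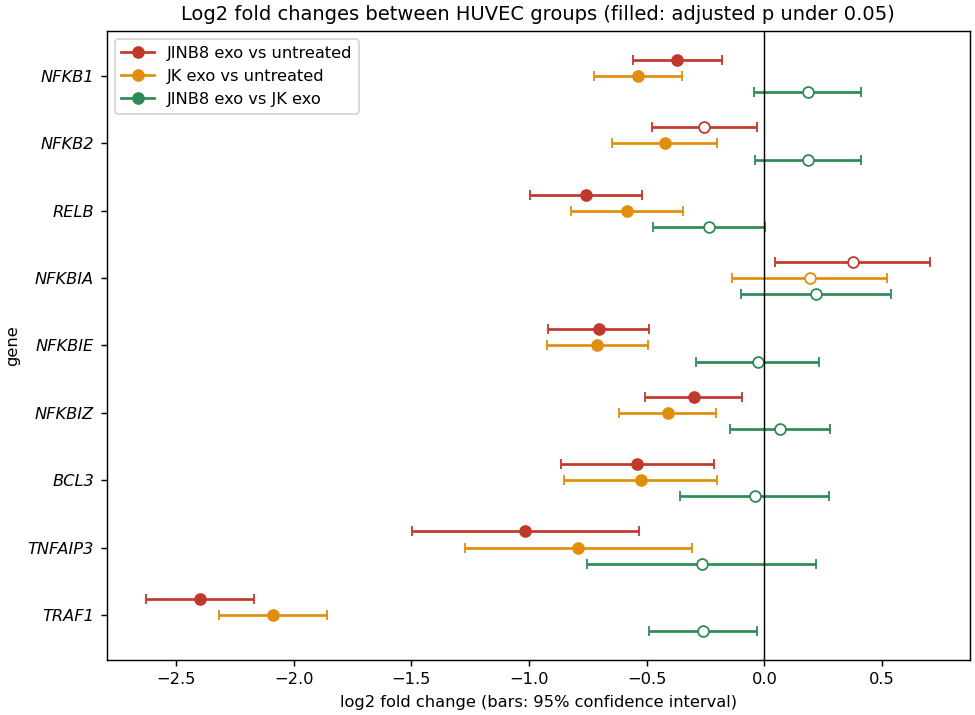
Log2 fold changes (x axis) of the 9 genes (y axis) for HUVEC with JINB8 exosomes against untreated, with JK exosomes against untreated, and with JINB8 against JK exosomes; bars are 95% confidence intervals and filled points passed an adjusted p under 0.05. TRAF1 lies at -2.40 and -2.09 against untreated cells, and none of the points for JINB8 against JK exosomes is filled.

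Other genes of the NF-kB pathway, from a list of 102 of which 94 were measured, moved in both directions. With JINB8 exosomes 20 rose and 44 fell (median log2 fold change -0.24), where 26% of all genes were called higher and 23.3% lower. With JK exosomes 22 rose and 42 fell (median -0.13), where 26.2% were called higher and 22.4% lower. Without replicate 3 of both treated groups 21 rose and 45 fell with JINB8 exosomes, and 20 rose and 42 fell with JK exosomes. The shares of all genes called higher and lower were then 24.9% and 22.4% with JINB8, and 23.9% and 20.7% with JK exosomes. After median centring 32 rose and 36 fell with JINB8 exosomes, where 38.1% of all genes were called higher and 18.7% lower, and 31 rose and 36 fell with JK exosomes, where the shares were 35.1% and 19.5%. Among the other subunits RELA, the p65 partner of p50, stood at 8.43, 8.43 and 8.42 with JINB8 exosomes, 8.45, 8.39 and 8.29 with JK exosomes and 9.18, 9.10 and 9.29 in untreated HUVEC on the quantile-normalized log2 scale. RELA fell by 0.76 with JINB8 exosomes and fell by 0.81 with JK exosomes, while REL had log2 fold changes of 0.03 and -0.07 that did not pass. In the group of other IkB and related genes, NFKBIB (IkB-beta) fell by 0.75 with JINB8 exosomes and by 0.85 with JK exosomes. NFKBIL1 rose by 0.35 with JK exosomes, and NKRF stood at 0.30 with JINB8 exosomes without passing (limma adjusted p = 0.053). Those 2 genes were each named by p in that comparison. Neither passed between JINB8- and JK-treated HUVEC with all arrays kept.

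The counts by role that follow rest on 10 to 23 genes each and stand beside those same shares of all genes, 26% higher and 23.3% lower with JINB8 exosomes and 26.2% and 22.4% with JK exosomes. Among 10 measured ligands, 4 fell and 1 rose with JINB8 exosomes and 5 fell and 1 rose with JK exosomes. TNFSF4 (OX40 ligand) stood at 5.84, 5.46 and 6.0 with JINB8 exosomes, 5.89, 5.74 and 5.39 with JK exosomes and 8.56, 8.33 and 8.68 in untreated HUVEC, and IL1A (interleukin-1 alpha) had log2 fold changes of -3.23 with JINB8 and -3.06 with JK exosomes. Of 11 receptors 6 fell and 2 rose in each comparison. IL1RL1, the receptor of interleukin-33, fell in both, with log2 fold changes of -2.57 with JINB8 and -2.46 with JK exosomes. TLR3, which senses double-stranded RNA, fell likewise, with log2 fold changes of -1.52 and -1.53. The 16 adaptors gave 8 falls and 4 rises with JINB8 exosomes and 6 of each with JK exosomes. RIPK2, the kinase that relays NOD receptor signals, fell in both comparisons (-1.02 with JINB8 and -1.04 with JK exosomes). The Toll-like receptor adaptor TICAM1 fell by 0.75 with JK exosomes, and the paracaspase MALT1 rose by 0.72 with JINB8 exosomes. Each was named by its p in that comparison. Neither passed between JINB8- and JK-treated HUVEC with all arrays kept (TICAM1 0.34, limma adjusted p = 0.26).

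The 11 kinase genes gave 3 falls and 5 rises with JINB8 exosomes and 2 of each with JK exosomes, the last below the share of all genes called in both directions. IKBKE, an IKK-related kinase, stood at 6.38, 6.45 and 6.72 with JINB8 exosomes, 6.89, 6.61 and 6.39 with JK exosomes and 7.70, 7.71 and 7.76 in untreated HUVEC, with log2 fold changes of -1.20 and -1.09 against untreated cells. MAP3K3 (MEKK3), which acts upstream of IKK, rose by 0.85 with JINB8 and 0.80 with JK exosomes. Of 17 genes of the ubiquitin machinery and other feedback, 6 fell and 2 rose with JINB8 exosomes and 6 fell and 4 rose with JK exosomes, with median log2 fold changes of 0.04 and -0.0051. BIRC2, the close relative of BIRC3, stood at 8.39, 8.26 and 8.29 with JINB8 exosomes, 8.31, 8.36 and 8.36 with JK exosomes and 9.24, 9.49 and 9.44 in untreated HUVEC, with log2 fold changes of -1.07 and -1.05. TNIP3, a partner of TNFAIP3, fell in both comparisons (-1.06 with JINB8 and -1.16 with JK exosomes). It was a dim gene, with a mean deposited log2 signal of 4.19 over the 15 arrays, and without detection calls its true low level is not known. Of 23 other NF-kB targets, 15 fell and 6 rose in each comparison, with medians of -1.12 and -1.11. The adhesion molecule VCAM1 had log2 fold changes of -2.98 with JINB8 and -2.88 with JK exosomes, and PLAU, the urokinase protease, of -2.45 and -2.38. Between JINB8- and JK-treated HUVEC 0 of these 94 genes passed. Without replicate 3 of both groups, the choice made after the values were seen, 2 were higher and 2 lower. In that fit 300 of 18417 genes passed.

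**Figure D4:**
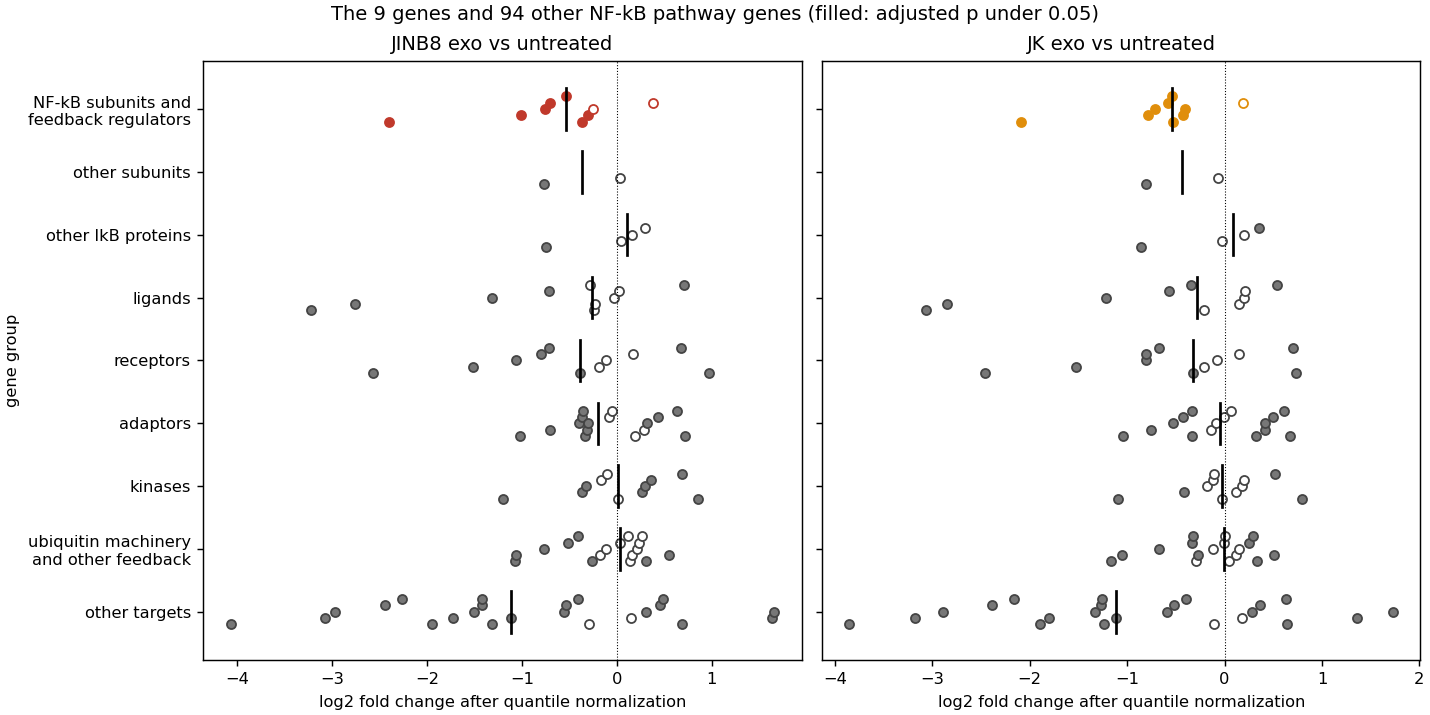
Log2 fold change after quantile normalization (x axes) of the 9 genes and of 94 other NF-kB pathway genes by role (y axis), for HUVEC with JINB8 exosomes (left) and with JK exosomes (right) against untreated HUVEC; filled points passed an adjusted p under 0.05 and black bars are medians. The 23 other targets have medians of -1.12 and -1.11, and the 9 genes have medians of -0.54.

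In the vesicles themselves, JINB8 and JK exosome RNA did not differ in any of the 9 genes beyond the threshold (limma on 6 arrays, adjusted p of 0.66 or more; 0.679% of all genes called, 0.668% higher). NFKBIA had 5.70, 5.72 and 5.83 in JINB8 exosome RNA and 5.65, 5.69 and 5.65 in JK exosome RNA on the deposited log2 scale, higher on every JINB8 array by a mean of 0.09 (95% interval -0.07 to 0.25). NFKBIE had 6.21, 6.40 and 6.36 in JINB8 and 6.61, 6.42 and 6.45 in JK exosome RNA, lower on every JINB8 array by a mean difference of -0.17 (95% interval -0.35 to 0.01). Without overlap, 7.35% of all genes were higher and 5.52% lower in JINB8 exosome RNA. The other 7 genes overlapped between the vesicle types, with differences from -0.18 for NFKB1 to 0.17 for NFKBIZ. Leaving out single arrays moved the NFKB1 difference between -0.34 and -0.018, and it was nearest 0 without JK exosome RNA replicate 3. The number of all genes called was 125, with 54 without that array, 59 without JINB8 exosome RNA replicate 3, 77 without JINB8 exosome RNA replicate 2 and 544 in the fit over all 15 arrays, and 0 of the 9 genes passed in any of these. Of the 94 pathway genes, 0 passed. Among the 13 T cell markers 1 was called higher and 0 lower in JINB8 exosome RNA (median log2 fold change 0.14).

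Most of the genes had less deposited signal in exosome RNA than in exosome-treated HUVEC. The mean of both exosome RNA groups was set against the mean of both exosome-treated HUVEC groups on deposited values (12 arrays), where 8 of the 9 genes were lower and 1 higher, beside 49.7% of all genes called lower and 45.3% higher, and the same 8 and 1 passed without replicate 3 of both treated groups. NFKBIA, given above for the vesicles, had 10.24, 10.15 and 9.82 in JINB8-treated and 9.77, 9.64 and 10.13 in JK-treated HUVEC, and was lower in exosome RNA by a log2 fold change of -4.25 (SE 0.086, limma adjusted p = 1.77e-17). NFKB1 had 4.11, 4.33 and 4.21 in JINB8 and 4.40, 4.07 and 4.72 in JK exosome RNA, a log2 fold change of -3.70 against treated HUVEC (SE 0.092, limma adjusted p = 2.79e-16). Both genes were lower on every exosome RNA array than on any treated HUVEC array, as were NFKB2 (-2.23), TNFAIP3 (-1.67) and NFKBIZ (-1.49). In the deposited values none of the 9 genes overlapped, as for 47.1% of all genes that were lower and 41.3% that were higher. TRAF1 ran the other way, with 4.49, 4.52 and 4.38 in JINB8 and 4.36, 4.56 and 4.34 in JK exosome RNA, higher than in treated HUVEC by 0.73 (SE 0.061, limma adjusted p = 4.58e-09), but by only 0.05 after cyclic loess (adjusted p = 0.44). RELB (-0.49), BCL3 (-0.93) and NFKBIE (-0.36) were also lower as deposited. Quantile normalization gave 0.42 for BCL3 and 1.23 for NFKBIE, so the direction of these 2 genes depends on the scaling. RELB kept its sign but no longer passed, at -0.0036 after quantile normalization and -0.073 after median centring.

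Markers of other cell types moved in this comparison as well. In exosome RNA 45.3% of all genes were called higher and 49.7% lower than in treated HUVEC. Beside those shares 13 of 13 T cell markers were called higher and 10 of 11 endothelial markers lower. Among the other markers, 7 of 10 mural cell and fibroblast markers and 7 of 8 myeloid markers were called higher too. The spread of log2 signal over genes was 1.03 to 1.07 (SD) on the exosome RNA arrays and 1.97 to 2.01 on the treated HUVEC arrays. The part of this narrower range in the values of RELB, BCL3, NFKBIE and TRAF1 was not tested.

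Ranks among the 18417 genes of the same array, which do not depend on its level, gave each gene's order over the 5 groups. NFKBIA ranked 5918, 5609 and 4889 in JINB8 exosome RNA, 6194, 5876 and 5707 in JK exosome RNA, 356, 403 and 556 and 582, 631 and 394 in HUVEC with JINB8 and with JK exosomes, and 721, 487 and 756 in untreated HUVEC, where rank 1 is the highest signal. It was among the brighter genes on every HUVEC array, the 3 HUVEC groups overlapped, and the vesicle groups lay lower and overlapped each other. NFKB1 ranked best in untreated HUVEC, next in JINB8-treated and then in JK-treated HUVEC with no overlap between these 3, and both vesicle groups were far lower and overlapped. NFKB2, NFKBIZ and TNFAIP3 had the same 2 tiers, HUVEC above vesicles, with JINB8- and JK-treated HUVEC overlapping in each. In NFKB2 the untreated ranks also overlapped those of JINB8-treated HUVEC.

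The remaining 4 genes had another order. NFKBIE ranked 2838, 1976 and 2141 in JINB8 and 1340, 1865 and 1591 in JK exosome RNA, against 6214, 5876 and 5451 in JINB8-treated, 5492, 5934 and 6161 in JK-treated and 3707, 3990 and 4141 in untreated HUVEC. Its best ranks were thus in the vesicles, its lowest in the treated cells, and only the 2 treated groups overlapped. BCL3 ranked 4326, 4780 and 3228 in JINB8 and 4127, 3278 and 3617 in JK exosome RNA, against 4790 to 6027 in treated HUVEC and 4555, 3345 and 4067 in untreated HUVEC, and its vesicle ranks overlapped the untreated ones alone. RELB ranked 8166 to 10229 in the vesicles and the treated cells, 4 groups that each overlapped the next, and 6335 to 7199 in untreated HUVEC. TRAF1 ranked 12993 to 14002 in the vesicles, between untreated HUVEC and the treated cells.

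**Figure D5:**
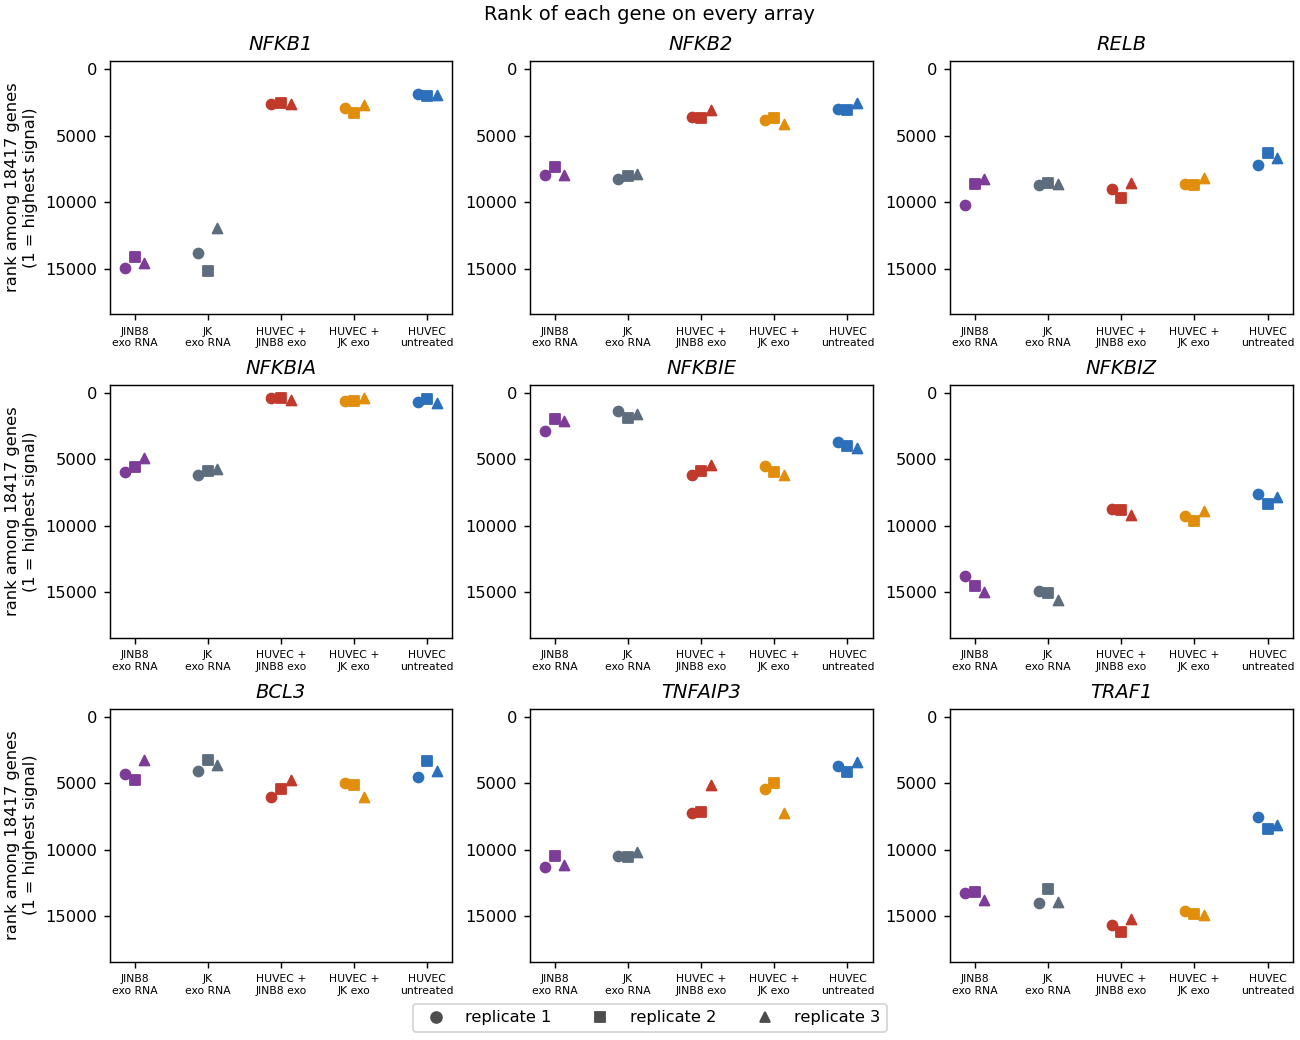
Rank of each of the 9 genes among 18417 genes (y axes, rank 1 at the top) on every array, by group (x axes), with a marker shape for each replicate number. NFKBIA ranks 4889 to 6194 in exosome RNA and 356 to 756 on the HUVEC arrays, and NFKBIE ranks 1340 to 2838 in exosome RNA and 3707 to 6214 in HUVEC.

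Across the 15 arrays, quantile-normalized together, the genes split in how they followed their own mean. Pearson's r with the mean of the 9 genes, each centred, was 0.98 for TNFAIP3, 0.96 for NFKB2, 0.95 for NFKB1, 0.94 for NFKBIZ and 0.88 for NFKBIA. It was 0.65 for RELB and 0.46 for TRAF1, and below 0 for BCL3 (-0.28) and NFKBIE (-0.70). Outside the lists, the genes most like that mean were FBN2, TGFBR1, RAB23, NIPAL2 and GLIPR1 (r of 0.995 to 0.997). The genes most like NFKBIA alone were SLMAP, SLC36A4 and XPO1 (r of 0.997 to 0.998). These coefficients describe 15 arrays that fall into HUVEC and vesicle clusters and share their normalization, and each of the 9 genes contributes to the mean it is compared with.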

How the data were processed

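The deposited values are log2 signals per probeset, made by the authors with Affymetrix Expression Console per the submitters' processing notes; the sources used here give neither its version, nor its normalization, nor which arrays were normalized as a set. The members and lists were chosen with earlier results of these data known. Of 33297 probesets, 19460 had 1 symbol, 1754 several and 12083 none listed; of a gene's probesets the one with the greatest mean over 15 arrays was kept, leaving 18417 genes.

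Groups came from the labels. Models were fitted with limma 3.58.1 in R 4.3.3 (lmFit, eBayes, no trend, not robust), with Benjamini-Hochberg adjustment over all genes and a threshold of 0.05: 1 fit over the 9 HUVEC arrays (quantile-normalized for comparisons with untreated cells, as deposited for JINB8- against JK-treated cells), 1 over the 6 exosome RNA arrays and 1 over 12 arrays for exosome RNA against treated HUVEC. Intervals are 95%. The fits were tested on simulated data. All members were named, with up to 2 pathway genes of smallest p per role and comparison, and the genes of highest correlation. Alternatives were other normalizations, a filter on the 40% dimmest genes, probeset means, all table rows, a variance trend, the replicate number as a block, array weights, only the arrays compared, all 15 arrays in 1 fit, an unadjusted p with a 1.5-fold minimum, and leaving out arrays; leaving out replicate 3 of both treated groups was added after the data were seen. The array's genome build is not given, so no probeset coordinates are printed; 3 arrays a group limit the precision.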

Additional observations from a re-analysis of the deposited data

How the results depend on the processing

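Of the members called lower, median centring left 4 with JINB8 exosomes (7 after quantile normalization) and 5 with JK exosomes (8 after quantile normalization). An unadjusted p with a 1.5-fold minimum left 4 with JINB8 and 3 with JK exosomes. Median centring called 18.7% of all genes lower and 38.1% higher with JINB8, and 19.5% and 35.1% with JK exosomes. The 1.5-fold rule called 9.7% of all genes lower with JINB8 and 9.27% with JK exosomes. One member, NFKBIA, was called higher under median centring with JINB8 and with JK exosomes (1 each), and with JINB8 exosomes also with array weights (1), a robust variance trend (1) and without replicate 3 of both treated groups (1). Leaving out single arrays gave 6 to 7 lower and 0 to 1 higher with JINB8 exosomes, the 1 being without JINB8-treated replicate 3 or untreated replicate 2, and 7 to 8 lower with JK exosomes. Of all genes, 20.1% to 22.5% were then called lower and 22.4% to 24.1% higher with JINB8 exosomes. With JK exosomes 19.5% to 21.9% of all genes were then called lower. For JINB8- against JK-treated HUVEC the count lower was 1, TNFAIP3, without replicate 3 of both. For exosome RNA against treated HUVEC, the reported fit called 49.7% of all genes lower and 45.3% higher. Quantile normalization over 12 or 15 arrays gave 5 members lower and 3 higher, and cyclic loess 2 higher. Dropping the dimmest genes gave 0 higher because TRAF1 is among them. The shares of all genes under these settings are not given here, so these counts were not set against them. Signs turned for NFKBIA as deposited (-0.95 with JINB8, -1.17 with JK exosomes), and in exosome RNA against treated HUVEC for NFKBIE (quantile 1.23, median centring 0.059, loess 1.48, 15-array quantile 1.29) and BCL3 (quantile 0.42, loess 0.72, 15-array quantile 0.44). Beyond the scaling itself and the fewer arrays, the cause was not tested. Over all genes, JINB8- against JK-treated HUVEC gave 0 calls as reported, 8 after median centring, 6 after loess, 23 with a variance trend and 377 with array weights.

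Same-numbered deviations from the group means correlated at -0.01 to 0.07 for JINB8-treated and untreated HUVEC, and at -0.08 to 0.24 for JK-treated and untreated. They correlated at -0.45 to -0.18 for JINB8- and JK-treated HUVEC, and at -0.037 to 0.026 for JINB8 and JK exosome RNA. Between exosome RNA and treated HUVEC they correlated at -0.06 to 0.07. Differently numbered arrays were not set beside these, so whether replicate numbers pair the arrays was not settled. With the replicate block the members called lower stayed at 7 with JINB8 and 8 with JK exosomes. In those fits 22.6% and 21.6% of all genes were called lower, and 8810 and 8618 genes were called in either direction.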
